A study of Mus musculus with 6 samples.

Results

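The gene group described here consists of 7 markers of hindgut endoderm, the epithelium that lines the posterior gut tube: Sox17, Foxa1, Trh, Cldn6, Krt8, Krt18 and Krt19. They were taken from the table by gene name, with no threshold on a measured value, and are 7 of the 35506 genes of the table that matched the annotation. All 7 had enough reads to be tested, as did 13617 autosomal genes in all. RNA was sequenced from tailbuds containing presomitic mesoderm, each from a single mouse embryo with 8 somites (E8.5). Libraries came from 3 wild-type embryos (Smchd1+/+, WT) and 3 embryos homozygous for the mutant allele (Smchd1MommeD43/MommeD43, MD43). All embryos were FVB/NJ. MommeD43 is a missense allele of Smchd1, which encodes a chromatin protein that acts in gene silencing, and it was carried in every cell and not restricted to a tissue. Replicate 1 of each genotype was male and the other 4 embryos were female, and by the labels the males shared a mother. Library totals recovered from the values ranged from 10957916 to 47298348 reads, and each library had a mean correlation between 0.978 and 0.984 with the other 5 over the genes tested. The labels give NSCs (neural stem cells) as source but tailbud as tissue, and tailbud was followed. Of 12 genes listed for presomitic mesoderm 11 were expressed above the filter, among them T at 117 to 188 RPKM and Msgn1 at 76.2 to 123 RPKM (reads per kilobase of exons, scaled to the reads of the library).

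In the tailbud at this stage the hindgut lies ventral to the presomitic mesoderm, and a cut through the tail takes both. Definitive endoderm is specified under SOX17 and the FOXA factors, which open chromatin at gut genes. Once formed, it is a simple epithelium that is held together by claudins and supported by filaments of keratin 8 paired with keratin 18 or 19. Not all of these genes are restricted to endoderm, since Sox17 is also active in endothelium and the keratins in other early epithelia. In a dissected tissue fewer endoderm cells and less RNA per cell cannot be told apart.

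WT and MD43 were compared marker by marker. No marker passed an adjusted p of 0.05 between genotypes, where the share called among all autosomal genes was 0% (limma), and the WT and MD43 ranges of every marker overlapped. WT replicate 1 held the lowest Foxa1, Krt8, Krt18 and Krt19 and the highest Trh of the 6 libraries.

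Promoter sequences are shown for Krt8 and Krt18, a neighboring pair of genes with the highest r among the markers, for Foxa1, whose correlation with them rested on 1 library, and for Trh, which went the other way in that library. RefSeq (GRCm38.p6) gave a window for 5 of the 7 markers, and the 250 bases before the RefSeq start are printed 5′ to 3′ on the strand of the gene. Capitals mark exact matches on either strand to 5 motifs. The letters searched were ATTGTT for the SOX motif, TGTTTAC for the FOX motif, AGATAA for the GATA motif, then CCGCCC for the SP/KLF motif, and TATAAA for the TATA motif. A match on the other strand appears as its reverse complement. The windows are chr15:102004343-102004592 for Krt8 (minus strand), chr15:102027966-102028215 for Krt18 (plus), chr12:57546112-57546361 for Foxa1 (minus) and chr6:92244651-92244900 for Trh (minus). The Foxa1 window lies inside the gene as placed below, and those of Krt8 and Krt18 reach into their genes, so that other starts lie further upstream.
Krt8: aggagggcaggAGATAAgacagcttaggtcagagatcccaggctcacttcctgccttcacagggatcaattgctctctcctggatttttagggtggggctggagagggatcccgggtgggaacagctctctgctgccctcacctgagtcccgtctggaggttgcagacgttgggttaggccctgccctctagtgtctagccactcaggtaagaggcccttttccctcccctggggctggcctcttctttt
Krt18: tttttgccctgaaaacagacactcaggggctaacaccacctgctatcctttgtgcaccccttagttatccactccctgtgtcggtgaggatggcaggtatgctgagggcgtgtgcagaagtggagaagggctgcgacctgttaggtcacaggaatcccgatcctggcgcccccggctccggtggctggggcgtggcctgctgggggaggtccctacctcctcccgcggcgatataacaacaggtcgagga
Foxa1: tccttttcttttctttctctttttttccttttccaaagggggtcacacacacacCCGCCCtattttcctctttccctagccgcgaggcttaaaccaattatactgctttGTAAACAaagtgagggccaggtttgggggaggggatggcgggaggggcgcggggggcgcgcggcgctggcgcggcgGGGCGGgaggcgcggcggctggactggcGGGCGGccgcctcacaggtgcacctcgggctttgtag
Trh: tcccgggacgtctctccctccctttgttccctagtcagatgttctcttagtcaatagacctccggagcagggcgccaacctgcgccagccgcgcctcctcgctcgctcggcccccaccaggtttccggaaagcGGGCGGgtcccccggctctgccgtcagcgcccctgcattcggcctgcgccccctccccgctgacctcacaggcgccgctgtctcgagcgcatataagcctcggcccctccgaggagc
The Foxa1 window held 1 FOX match, on the minus strand of the gene and beginning 141 bases before the start. It also held 3 SP/KLF matches. The Krt8 window held 1 GATA match, the Trh window 1 SP/KLF match and the Krt18 window no match to any of the 5 motifs. The fifth marker with a window, Cldn6, had 2 SP/KLF matches, but the bases after its RefSeq start were not found in its annotated transcripts. Among 32851 promoter windows of this length, 3.17% held the FOX motif, 9.99% the GATA motif and 32.7% the SP/KLF motif. The SOX and TATA motifs, which no printed window held, were in 9.42% and 12.4%. None of these motifs overlaps another in the windows shown, and a match of letters is not evidence of binding.

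The plot of RPKM by genotype shows every library for each marker. The axes differ between markers, since their levels span from 2.18 to 185 RPKM.

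**Figure D1:**
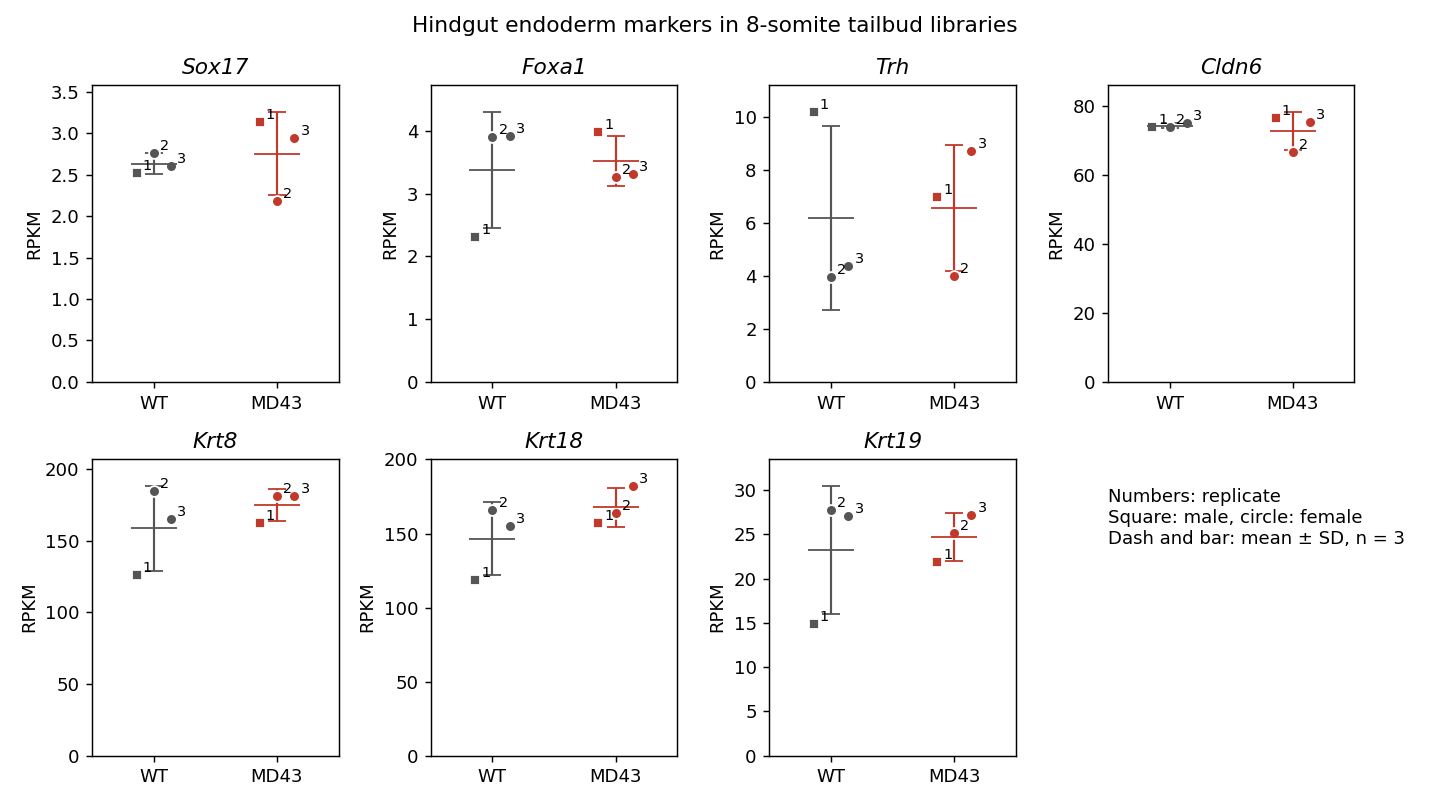
RPKM of each marker (vertical axes, from 0) in the 3 WT and 3 MD43 libraries, with the replicate number beside each point, squares for males, circles for females, and the mean ± SD of each genotype. WT replicate 1 is the lowest library for Foxa1, Krt8, Krt18 and Krt19 and the highest for Trh, and the genotypes overlap in all 7 panels.

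Sox17 encodes an HMG-box factor needed to form definitive endoderm. Its gene (ENSMUSG00000025902) lies on chromosome 1 from 4490931 to 4497354 in GRCm38. It was at 2.52, 2.77 and 2.61 RPKM in WT replicates 1, 2 and 3, and at 3.14, 2.18 and 2.95 RPKM in MD43 replicates 1, 2 and 3. The WT libraries thus lay inside the MD43 range. The smallest number of reads behind these values was 164, in MD43 replicate 1, where the exact 95% confidence interval (Clopper-Pearson, counting error only) went from 2.67 to 3.65 RPKM. That interval lay above the one of MD43 replicate 2, from 1.996 to 2.39 RPKM, so that within MD43 the spread exceeded counting error. The log2 fold change, MD43 against WT, was 0.05 ± 0.16 (SE), with an adjusted p of 0.999 (limma, as for each marker). Exons of a gene on the other strand, Gm37587, cover 16.8% of the Sox17 exons. This gene held at most 5 reads in a library.

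Foxa1 encodes a forkhead factor that binds gut enhancers before they are active. The gene (ENSMUSG00000035451, chromosome 12, 57540628 to 57546916) was at 2.31, 3.89 and 3.92 RPKM in WT replicates 1, 2 and 3, and at 3.98, 3.27 and 3.31 RPKM in MD43 replicates 1, 2 and 3. The WT group therefore held both a pair of nearly equal libraries and the lowest value of all, while MD43 replicate 1 held the highest. The interval of WT replicate 1 (2.04 to 2.59 RPKM, 281 reads) did not reach that of any other library. MD43 against WT gave 0.10 ± 0.21 on the log2 scale (SE, adjusted p = 0.999, limma). Its direction depended on WT replicate 1, and it was -0.16 without that library.

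Trh encodes the precursor of thyrotropin-releasing hormone, a tripeptide amide best known from the hypothalamus and also transcribed in early endoderm. The gene (ENSMUSG00000005892, chromosome 6, 92242061 to 92244650) was at 10.2, 3.98 and 4.39 RPKM in WT replicates 1, 2 and 3, and at 6.99, 4.002 and 8.72 RPKM in MD43 replicates 1, 2 and 3. Each genotype held libraries near 4 RPKM and libraries well above. The highest library was 2.57 times the lowest, the widest range of the 7 markers. Intervals for the 3 high libraries began at 5.72 RPKM or above, and those for the 3 low libraries ended at 5.33 RPKM or below. The log2 fold change was 0.15 ± 0.39 (SE), with a 95% confidence interval from -0.74 to 1.05, so that differences of up to 2.06-fold were not excluded by these libraries. Without WT replicate 1 it was 0.58, and without WT replicate 2, WT replicate 3 or MD43 replicate 3 it was -0.10, -0.03 or -0.09.

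Cldn6 encodes a tight junction protein of embryonic epithelia. The gene (ENSMUSG00000023906, chromosome 17, 23679249 to 23682446) was at 73.9, 74.0 and 75.2 RPKM in WT replicates 1, 2 and 3, and at 76.7, 66.6 and 75.3 RPKM in MD43 replicates 1, 2 and 3. Among the markers it varied least, and only MD43 replicate 2 stood apart from the other 5 libraries. Its SD over the 6 libraries was 0.07 on the log2 scale, and 16.5% of the genes tested had a smaller one. The log2 fold change was -0.03 ± 0.06 (SE), with an interval from -0.17 to 0.11. It was 0.03 without MD43 replicate 2.

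Krt8 encodes the type II keratin of simple epithelia. The gene (ENSMUSG00000049382, chromosome 15, 101996698 to 102004482) was at 126, 185 and 165 RPKM in WT replicates 1, 2 and 3, and at 162, 181 and 181 RPKM in MD43 replicates 1, 2 and 3. Apart from WT replicate 1 the 5 libraries of both genotypes intermingled. The log2 fold change of 0.16 ± 0.13 (SE) was 0.0013 when WT replicate 1 was left out, and 0.28 when WT replicate 2 was. Of the distinct stretches of 75 bases, the read length, in Krt8 transcripts, 22.0% also occur in the processed pseudogene Krt8-ps, so that some reads could have been placed there. Exons of Gm36026 on the other strand cover 5.16% of the Krt8 exons, and this gene held at most 10 reads in a library.

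Krt18 encodes a type I keratin that pairs with keratin 8. Its gene (ENSMUSG00000023043, chromosome 15, 102028180 to 102032027) begins 23698 bases from the start of Krt8 and is read in the opposite direction. Krt18 was at 119, 166 and 155 RPKM in WT replicates 1, 2 and 3, and at 157, 164 and 182 RPKM in MD43 replicates 1, 2 and 3. Of all markers it had the largest log2 fold change relative to its error, 0.21 ± 0.12 (SE), which corresponds to 1.15-fold with an interval from 0.953 to 1.40. The unadjusted p was 0.123 and the adjusted p 0.999 (limma). An exact permutation test (two-sided, n = 3 each) gave p = 0.3, where the smallest p this design allows is 0.1. When WT replicate 1 was left out the log2 fold change was 0.06, and when WT replicate 2 was left out it was 0.30.

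Krt19, another type I partner of keratin 8, has a gene (ENSMUSG00000020911) on chromosome 11 from 100140810 to 100148665. It was at 14.9, 27.8 and 27.1 RPKM in WT replicates 1, 2 and 3, and at 21.8, 25.2 and 27.2 RPKM in MD43 replicates 1, 2 and 3. WT replicate 1 was again the lowest, and WT replicates 2 and 3 lay beside the upper MD43 libraries. The log2 fold change of 0.14 ± 0.22 (SE) was -0.15 without WT replicate 1. No 75-base stretch of Sox17, Foxa1, Trh, Cldn6, Krt18 or Krt19 occurred on the same strand of a transcript of another gene.

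Ordered by their mean over the 6 libraries, and per length of exons, the levels were 167 ± 22.0 RPKM for Krt8, 157 ± 21.1 for Krt18, 73.6 ± 3.58 for Cldn6, 23.99 ± 4.98 for Krt19, 6.38 ± 2.68 for Trh, 3.45 ± 0.642 for Foxa1 and 2.69 ± 0.335 for Sox17 (SD, n = 6). Krt8 and Krt18, Trh and Foxa1, and Foxa1 and Sox17 were neighbors whose ranges overlapped. Cldn6 was above Krt19 and below Krt18 in all 6 libraries with ranges apart, and Krt19 was likewise above Trh. The structural genes were among the more abundant of the tissue, since 98.5% of the genes tested had a lower mean log2 RPKM than Krt8 and 96.3% a lower one than Cldn6. For Foxa1 and Sox17 this was 40.3% and 36.0%.

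The table held 49 keratin genes, of which 12 were tested and 17 had no read in any library. After Krt8, Krt18 and Krt19, the most abundant of those tested was the type II keratin Krt7, at 1.17, 2.10 and 2.22 RPKM in WT and 2.20, 2.98 and 2.10 RPKM in MD43 (replicates 1 to 3 in each). WT replicate 1 was the lowest library for Krt7 too. The ratio of Krt8 to Krt18 was nearly constant, at 1.06 ± 0.0449 (SD, n = 6), with a range from 0.994 in MD43 replicate 3 to 1.11 in WT replicate 2. Relative to the sum of its type I partners Krt18 and Krt19, Krt8 ranged from 0.864 to 0.959. Krt19 was 0.152 ± 0.0183 of Krt18. In WT replicate 1 this share was the lowest, at 0.125, so that Krt19 was further below the other libraries there than Krt18 was.

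Across the 7 markers 6 had a log2 fold change above 0, against 51% of all genes tested, and the median was 0.14 against 0.00. The median was close to 0 without WT replicate 1 (0.0013) and -0.07 in the females alone. It therefore rested on that library. Neither the unadjusted p (0 of 7 under 0.05, against 2.4% of genes tested) nor overlap of the groups (0 of 7 apart, against 7.08%, of which 3.53% higher and 3.55% lower in MD43) set the markers apart. In the females alone 0 of 7 passed an adjusted p of 0.05, against 0.0734% of genes (limma), and without WT replicate 1 0 of 7 had an unadjusted p under 0.05, against 6.93%. The unadjusted p of Krt18 fell to 0.035 with sex as a covariate, where 2.83% of genes were under 0.05. Without WT replicate 2, where 2.14% were, Krt8 was at 0.048 and Krt18 at 0.037. The adjusted values of these were 0.997, 0.99994 and 0.99994 (limma).

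**Figure D2:**
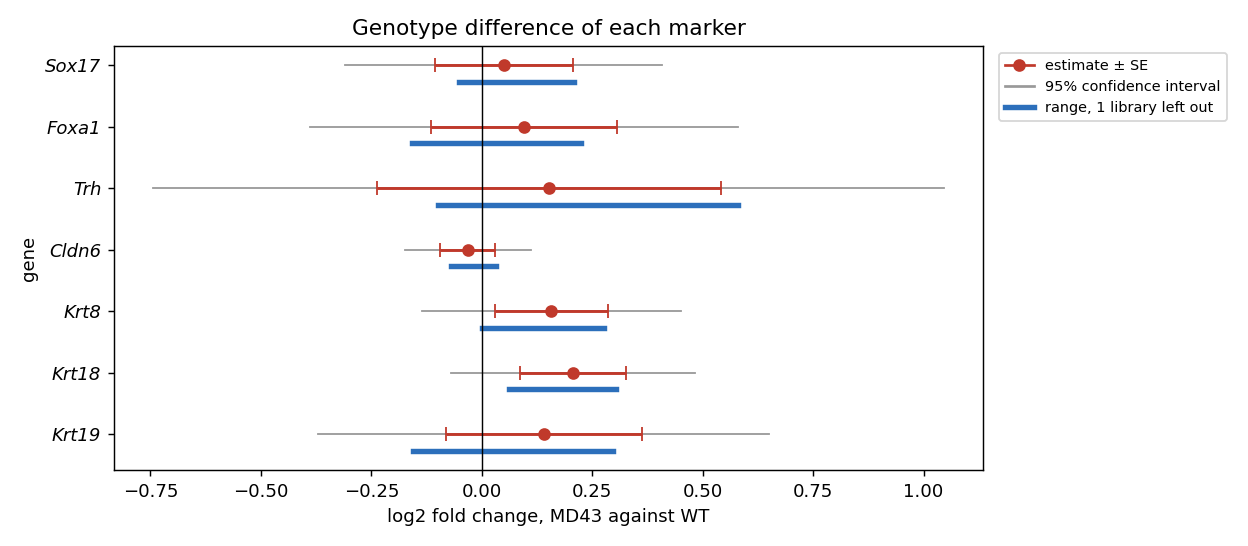
Log2 fold change, MD43 against WT, of each marker (horizontal axis), with its SE, its 95% confidence interval and the range over the 6 fits that each left out 1 library. Every confidence interval includes 0, and the leave-one-out ranges of Sox17, Foxa1, Trh, Cldn6 and Krt19 cross 0.

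The markers were then compared as to their variation over the 6 libraries, irrespective of genotype. The SD of log2 RPKM was 0.60 for Trh, 0.35 for Krt19, 0.30 for Foxa1, 0.21 for Krt8 and Krt18, 0.18 for Sox17 and 0.07 for Cldn6, against a median of 0.14 for all genes tested. Of these genes 93.0% had a smaller SD than Trh and 81.6% a smaller one than Krt19. WT replicate 1 was 0.66 below the mean of Krt19, 0.55 below that of Foxa1 and 0.39 below those of Krt8 and Krt18 on the log2 scale, and 0.78 above that of Trh. It was the lowest library for 4 of the 7 markers, as for 20% of the genes tested. MD43 replicate 1 was the highest library for Sox17, Foxa1 and Cldn6, as for 14.4% of the genes tested. MD43 replicate 2, the deepest library, was the lowest for Sox17 and Cldn6, as for 12.1%, and MD43 replicate 3 was the highest for Krt18 alone, as for 22.4%.

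**Figure D3:**
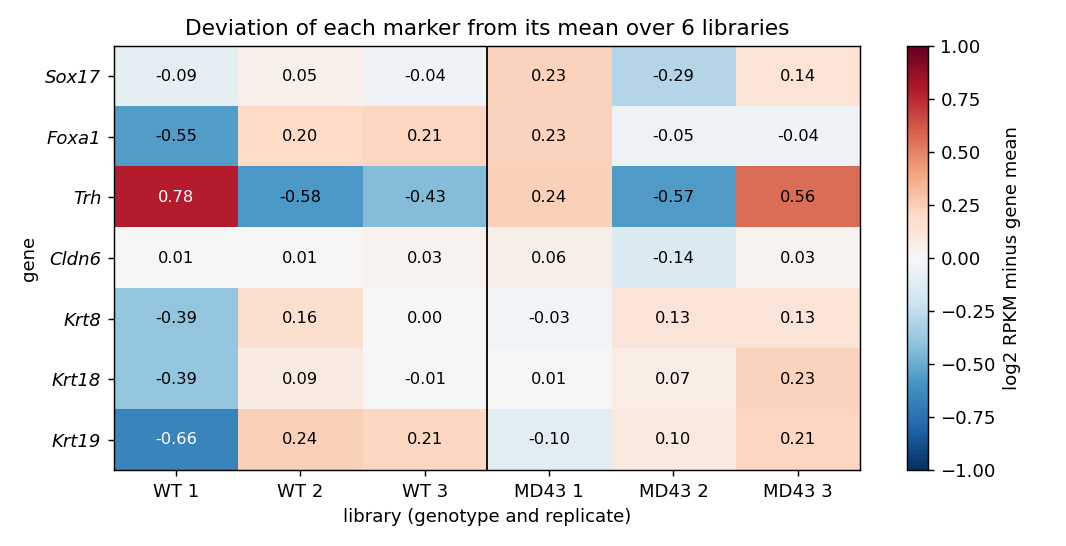
Log2 RPKM of each marker (rows) in each library (columns) minus the mean of that marker over the 6 libraries, with blue for lower and red for higher. In WT replicate 1 the values are -0.55 for Foxa1, -0.39 for Krt8 and Krt18 and -0.66 for Krt19, beside 0.78 for Trh.

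Of the 21 pairs, 14 had a Pearson's r above 0 over the 6 libraries, and the median r was 0.27 (-0.0151 without WT replicate 1 and 0.55 without MD43 replicate 2). The points share library, depth and dissection, and no pair had an adjusted p under 0.05 (exact permutation test over all orders of the libraries, two-sided, adjusted over the 21 pairs). The keratin pairs had the highest r, though none passed adjustment. For Krt8 and Krt18 r was 0.96 (rho = 0.89, exact permutation p = 0.00972 and 0.0333, adjusted 0.102 and 0.233). For Krt8 and Krt19 r was 0.95 (rho = 0.94, exact permutation p = 0.0181 and 0.0167, adjusted 0.126 and 0.175). For Krt18 and Krt19 it was 0.92 (rho = 0.77, exact permutation p = 0.0403 and 0.103, adjusted 0.211 and 0.432). Without WT replicate 1 the r of these pairs was 0.71, 0.61 and 0.43. Without the 2 libraries farthest from the median of the first gene these values were 0.79, 0.50 and 0.34, so that the relation of Krt18 and Krt19 in particular rested on those libraries, WT replicate 1 and MD43 replicate 3.

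Outside the keratin pairs the highest r was that of Sox17 and Cldn6, at 0.89, which did not pass adjustment (rho = 0.94, exact permutation p = 0.00694 and 0.0167, adjusted 0.102 and 0.175). Leaving out each library in turn gave 0.81 to 0.93, and within genotypes r was 0.96. Without MD43 replicates 1 and 2, the libraries at the ends of the Sox17 range, it was 0.53. Foxa1 had a rho of 0.71 with Sox17 and 0.77 with Cldn6 (exact permutation p = 0.136 and 0.103, adjusted 0.476 and 0.432). The amplitudes of Sox17 and Cldn6 differed, since the highest library was 1.44 times the lowest for Sox17 and 1.15 times for Cldn6.

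The positive r of Foxa1 with the keratins over 6 libraries depended on WT replicate 1. Foxa1 had an r of 0.74 with Krt8, 0.72 with Krt18 and 0.81 with Krt19 over 6 libraries, and -0.61, -0.69 and -0.22 without that library. Without WT replicate 1 and MD43 replicate 1, the 2 libraries farthest from the median of Foxa1, these were -0.45, -0.62 and 0.66. Spearman's rho for these pairs was 0.09, 0.09 and 0.26 (exact permutation p = 0.919, 0.919 and 0.658, adjusted 0.965, 0.965 and 0.937), and the p of r was 0.132, 0.1403 and 0.1 (adjusted 0.295 each). Trh had an r of -0.68 with Krt19, -0.65 with Krt8 and -0.64 with Foxa1 (exact permutation p = 0.0917, 0.125 and 0.131, adjusted 0.295 each). Without WT replicate 1 these were -0.30, -0.20 and -0.19. With Krt18 the r of Trh was -0.42 (exact permutation p = 0.472, adjusted 0.708), and it was 0.53 without WT replicate 1. The ratio of Trh to Foxa1 went from 1.02 in WT replicate 2 to 4.42 in WT replicate 1.

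**Figure D4:**
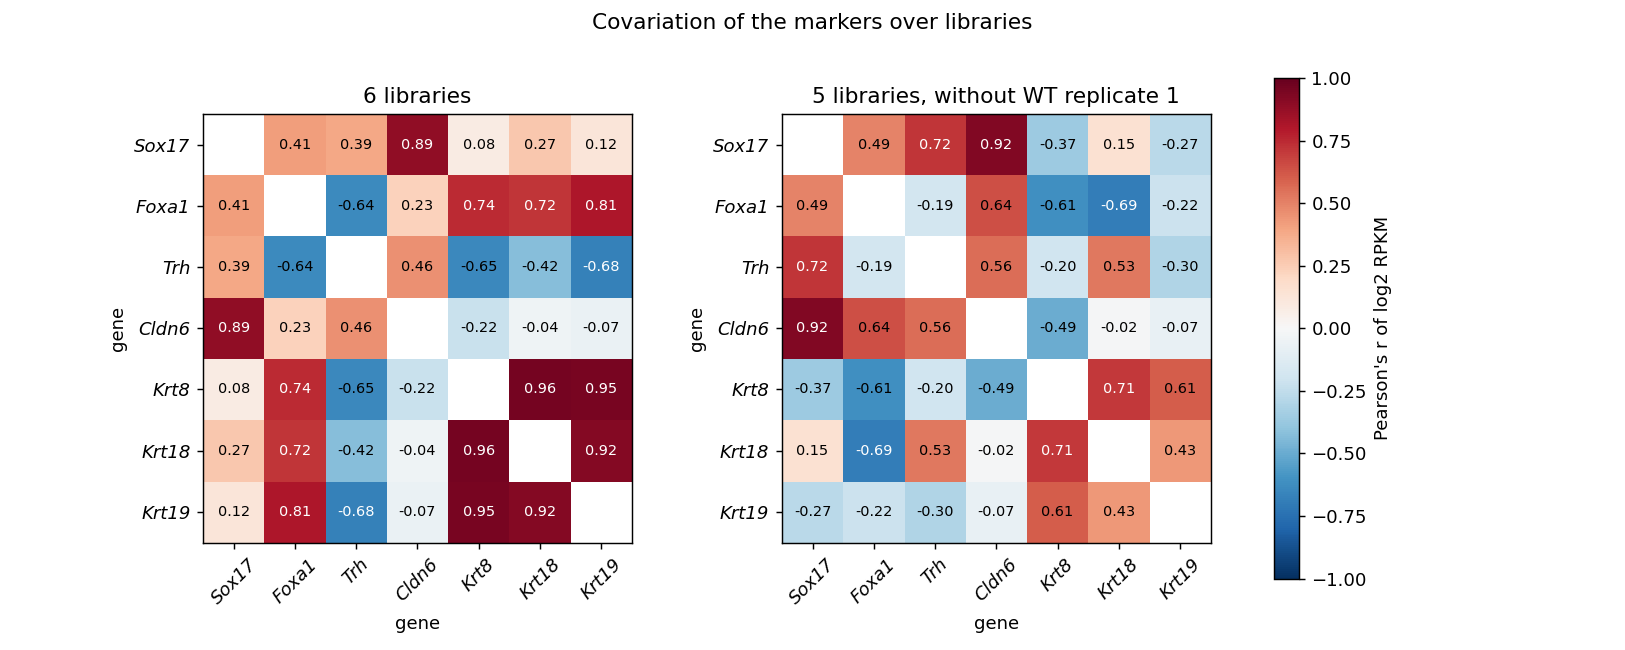
Pearson's r of log2 RPKM for each pair of markers over all 6 libraries (left) and over the 5 libraries without WT replicate 1 (right), with red for positive and blue for negative values. The r of Foxa1 with Krt8 changes from 0.74 to -0.61, while that of Sox17 with Cldn6 goes from 0.89 to 0.92.

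The mean profile of the 7 markers was used to find genes with a similar pattern. Among 3011 genes with an SD of at least 0.3, 24 (0.797%) had an r above 0.9 with it over the 6 libraries and 16 (0.531%) had one below -0.9. The 10 most similar were Emc9 (r = 0.99), Mmrn2 (0.98), 0610040B10Rik (0.98), Myl3 (0.98), Arhgef38 (0.97), Flt3l (0.96), Lfng (0.95), Lhx1 (0.95), Gm20163 (0.94) and Itga11 (0.94). They were picked for their r, which is given as a description. Most were scarce, with means from 0.0543 RPKM for Arhgef38 to 1.57 RPKM for Myl3. Lfng, a glycosyltransferase that modulates Notch, was the exception at 8.13, 10.9 and 13.3 RPKM in WT and 15.3, 10.2 and 18.8 RPKM in MD43 (replicates 1 to 3 in each). In these genes WT replicate 1 and MD43 replicate 2 were low and MD43 replicate 3 was high, as in the mean profile. That profile is an average and not the pattern of each marker. In MD43 replicate 2 Krt8, Krt18 and Krt19 were 0.13, 0.07 and 0.10 above their means on the log2 scale. In WT replicate 1 Trh was 0.78 above its mean.

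The genotype difference was also compared between the sexes, with 1 male and 2 females per genotype. In the females Foxa1 had a log2 fold change of -0.25 ± 0.12 (SE). In the male pair it was 0.79. Krt19 had -0.07 ± 0.07 in the females and 0.56 in the male pair, and Trh had 0.50 ± 0.32 and -0.55. The difference between the sexes was 1.04 ± 0.21 for Foxa1 (unadjusted p = 0.00169, adjusted p = 0.153, limma). It was 0.62 ± 0.12 for Krt19 (unadjusted p = 0.00126, adjusted p = 0.130) and 0.31 ± 0.12 for Krt8 (unadjusted p = 0.0390, adjusted p = 0.443). Of the 7 markers 0 passed an adjusted p of 0.05, against 0.272% of the genes tested, and 3 had an unadjusted p under 0.05, against 10.8%. With 1 male per genotype, the SE and p of these differences take their spread from the 4 females. The male WT library is WT replicate 1, so that sex, mother and this single library cannot be told apart.

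Other genes of gut endoderm were read from a list of 30, of which 26 were tested. None passed an adjusted p of 0.05 (limma) and none had an unadjusted p under 0.05 or groups apart, and 9 of the 26 had a log2 fold change above 0. Their median was -0.04, against 0.00 for all genes. The most abundant were Cdx2, a posterior regulator that the mesoderm also expresses, at 148 to 183 RPKM, and Car4, a carbonic anhydrase, at 59.9 to 95.9 RPKM. Summed over the list the level was 482 to 515 RPKM in WT and 455 to 536 RPKM in MD43. Cdx2 was a large part of this sum, and some single genes varied more. Over the 6 libraries Hnf4a was at 0.482 to 3.31 RPKM and Spink1 at 21.5 to 71.7 RPKM. Epcam stayed within 21.7 to 27.0 RPKM. The summed level was lowest in MD43 replicate 2 and highest in MD43 replicate 1, the order seen for Sox17 and Cldn6. Hhex had a read in 2 libraries and Cer1 in none, both of which mark anterior endoderm.

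Of the relatives of the factors among the markers, Sox7, Sox18, Foxa2 and Foxa3, all 4 were tested and none had an unadjusted p under 0.05, with a median of -0.03. Foxa2 was at 3.42, 4.04 and 4.95 RPKM in WT and at 4.74, 3.19 and 3.22 RPKM in MD43 (replicates 1 to 3 in each). Sox18 was at 2.87 to 5.15 RPKM in WT and 3.82 to 5.63 RPKM in MD43. Both of these were lower in WT replicate 1 than in the other WT libraries, though Foxa2 was lowest of all in MD43 replicate 2. Of the other relatives, Sox7 was lowest in WT replicate 1, at 1.85 RPKM, and Foxa3 was highest there, at 1.89 RPKM.

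Among 9 further genes of simple epithelial filaments and desmosomes, 8 were tested, none had an unadjusted p under 0.05 and the median was 0.03. Dsp, the desmosomal plaque protein that anchors keratin, was at 33.4 to 37.5 RPKM in WT and 30.1 to 37.7 RPKM in MD43, and Pkp2, another plaque protein, at 8.53 to 10.2 and 9.21 to 9.38 RPKM. WT replicate 1 was the lowest of the 6 libraries for Pkp2, at 8.53 RPKM, and for Perp, a desmosomal membrane protein, at 3.71 RPKM against 5.02 to 6.40 RPKM in the others. It was the highest for Dsg2 (10.1 RPKM), Plec (4.09 RPKM) and Krt23 (0.628 RPKM) of the same list. For Dsp it was at 33.4 RPKM, below the other WT libraries, and MD43 replicate 2 was the lowest. Of 14 tight junction genes beside Cldn6, 10 were tested, with a median of 0.00. Marveld2, which encodes tricellulin, had groups apart, with 4.25, 4.12 and 3.88 RPKM in WT and 3.16, 3.18 and 3.66 RPKM in MD43, and a log2 fold change of -0.30 ± 0.11 (SE, unadjusted p = 0.0235, adjusted p = 0.999, limma). F11r was at 39.9 to 47.9 RPKM in WT and 47.2 to 48.5 RPKM in MD43, and Tjp1 at 31.3 to 45.6 and 34.6 to 39.6 RPKM.

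Around Trh, 5 of 11 genes for processing, reception and downstream hormones were tested, with none under an unadjusted p of 0.05 and a median of -0.03. The receptor gene Trhr and the thyrotropin subunits Tshb and Cga had no read in any library. The processing enzymes Cpe and Pam were at 7.19 to 8.53 and 3.04 to 3.96 RPKM over the 6 libraries, ranges far narrower than the 3.98 to 10.2 RPKM of Trh. Relative to its level Pcsk1, another processing enzyme, ranged more widely than Cpe and Pam, from 0.612 to 1.11 RPKM. So did Dio3, from 1.59 to 3.20 RPKM.

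Genes of other cells that a tailbud dissection can hold were read beside the markers. Visceral endoderm and yolk sac genes, 15 of 15 tested with none under an unadjusted p of 0.05, varied far more than the gut markers. Their summed level was 185 to 345 RPKM in WT and 53.8 to 532 RPKM in MD43, and 1 of 15 had a log2 fold change above 0, with a median of -1.04. Ttr, a thyroid hormone carrier, was at 29.0, 66.3 and 69.9 RPKM in WT and at 108, 12.6 and 13.9 RPKM in MD43 (replicates 1 to 3 in each). Apoa1, an apolipoprotein, was at 42.8, 58.8 and 61.1 RPKM and at 124, 8.52 and 3.09 RPKM. MD43 replicate 1 was highest for this list, as it was for Sox17, Foxa1 and Cldn6, whereas MD43 replicate 3 was lowest for the list and had the highest Krt18. The part of yolk sac RNA in the level of the markers was not tested.

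Endothelial genes, 11 of 11 tested, had a summed level of 38.9 to 67.99 RPKM in WT and 53.5 to 70.2 RPKM in MD43, with the lowest value in WT replicate 1 as for Foxa1 and the keratins. Their median was 0.28 and 9 had a log2 fold change above 0, and Tie1, a receptor of endothelium, had the smallest p (0.48 ± 0.19, SE, unadjusted p = 0.0351, adjusted p = 0.999, limma). Kdr was at 11.4 to 17.8 RPKM in WT and 11.5 to 16.6 RPKM in MD43, and Egfl7 at 8.07 to 12.2 and 10.9 to 11.6 RPKM. Sox17 was at 2.52 RPKM in WT replicate 1, the lowest WT value, and at 2.18 RPKM in MD43 replicate 2, the lowest of all. Primitive blood genes, 7 of 9 tested with 1 of 7 above 0 and a median of -0.73, summed to 11.05 to 488 RPKM in WT and 25.9 to 222 RPKM in MD43, again lowest in WT replicate 1. The embryonic globins Hbb-bh1 and Hba-x were at 2.63 and 0.728 RPKM there, against 299.9 and 119 RPKM in WT replicate 2, and Gata1 was at 0. MD43 replicates 1 and 3 were also low, with Hbb-bh1 at 7.89 and 9.85 RPKM, Hba-x at 3.60 and 4.15 RPKM and Gata1 at 0, while MD43 replicate 3 had the highest Krt18. The part of these cells in the result was not tested.

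The lists for presomitic mesoderm and neural tube had their highest sums in WT replicate 1. Presomitic mesoderm genes, 11 of 12 tested with a median of 0.02, summed to 454 to 645 RPKM in WT and 474 to 569 RPKM in MD43. T was at 188 RPKM in that library against 117 to 141 RPKM in the other 5, and Msgn1 at 123 against 76.2 to 113 RPKM. Hes7, a clock gene, had the smallest p of that list (0.47 ± 0.20, SE, unadjusted p = 0.0441, adjusted p = 0.999, limma). Neural genes, 6 of 8 tested with a median of 0.02, summed to 73.6 to 116 RPKM in WT and 88.3 to 103 RPKM in MD43. The progenitor gene Nkx1-2 was at 87.4 RPKM in WT replicate 1 and 50.3 to 76.9 RPKM elsewhere, and Sox2 at 15.4 and 11.8 to 14.5 RPKM. The proportion of tail tip tissue in the dissections was not tested as a source of the marker levels.

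Notochord and node genes, 8 of 9 tested, had a median of -0.15, with 0 of 8 above 0 and none under an unadjusted p of 0.05. They summed to 139 to 205 RPKM in WT and 142 to 161 RPKM in MD43, mostly T. Noto, a node gene, was at 0.0954 RPKM in MD43 replicate 3 and at 3.44 to 6.23 RPKM in the other 5 libraries. Foxa1 in that library was at 3.31 RPKM, close to the 3.27 RPKM of MD43 replicate 2, where Noto was at 5.17 RPKM. The part of notochord and node cells in the Foxa1 level was not tested. Surface ectoderm, which shares keratins with the gut, had 9 of 9 genes tested, with a median of 0.09 and none under an unadjusted p of 0.05. It summed to 35.3 to 42.5 RPKM in WT and 35.6 to 47.6 RPKM in MD43. Wnt6 was at 18.6 RPKM in WT replicate 1, within the 14.1 to 20.2 RPKM of the other libraries, and Grhl3 at 7.82 within 6.15 to 9.63 RPKM. Of the same list, Trp63 and Krt14 were second lowest in WT replicate 1, at 0.814 and 0.233 RPKM. Esrp1 was highest in that library, at 8.35 RPKM, and Tfap2a and Dlx5 were second highest, at 2.20 and 1.67 RPKM. The part of ectoderm in the keratin levels was not tested.

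Lateral mesoderm and allantois genes, 10 of 10 tested with a median of 0.04, summed to 173 to 199 RPKM in WT and 178 to 206 RPKM in MD43. Hand1 was at 46.8 to 67.4 RPKM and Foxf1 at 32.7 to 46.4 RPKM over the 6 libraries. Bmp4, a ligand made by this mesoderm, had groups apart (0.17 ± 0.06, SE, unadjusted p = 0.0316, adjusted p = 0.999, limma). Trophoblast and decidual genes, 6 of 9 in the table tested with a median of 0.67 and none under an unadjusted p of 0.05, summed to 3.79 to 14.5 RPKM in WT and 6.69 to 28.8 RPKM in MD43. Prl8a2 reached 7.77 RPKM, in MD43 replicate 1, and Prl3d1 14.3 RPKM, in MD43 replicate 2, where Sox17 and Cldn6 were lowest. The part of these cells in the result was not tested.

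**Figure D5:**
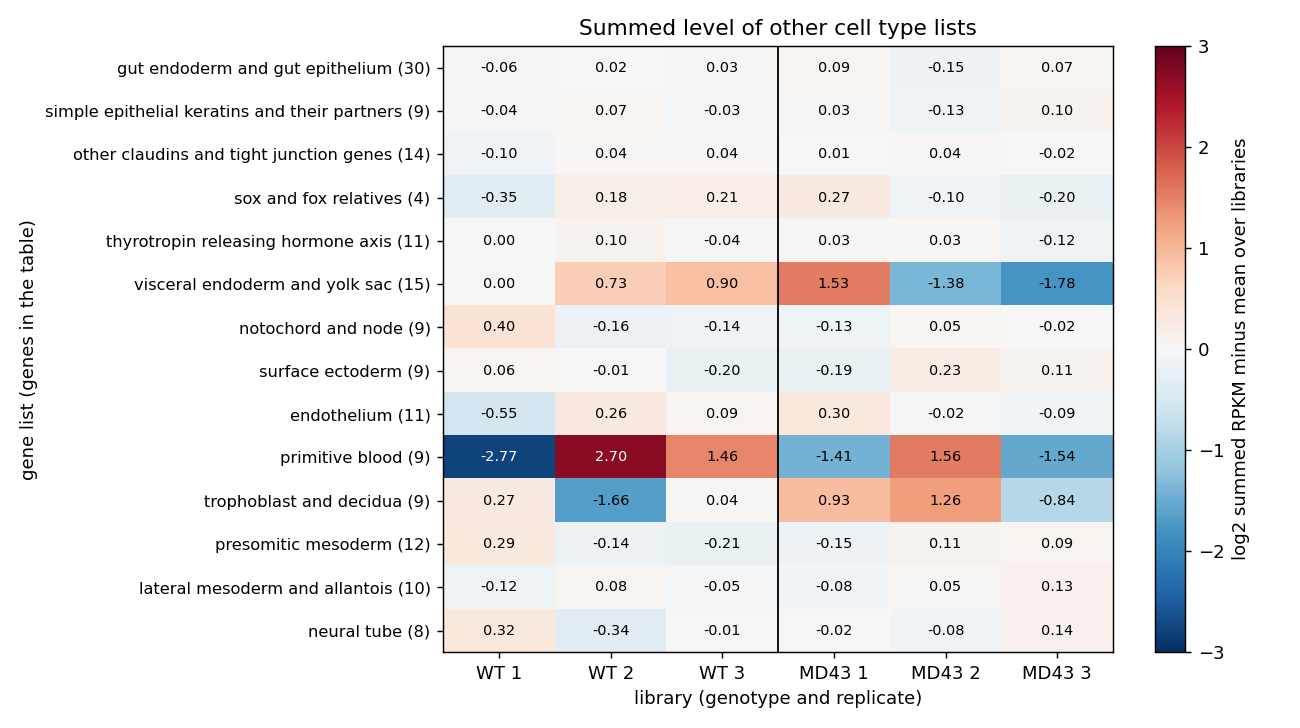
Summed RPKM of each list of other cell type genes (rows) in each library (columns) as log2 minus the mean over the 6 libraries, with blue for lower and red for higher and the number of genes in the table in brackets. The yolk sac list spans -1.78 to 1.53 and the blood list -2.77 to 2.70, while the summed gut endoderm list stays between -0.15 and 0.09. Cdx2, which the mesoderm also expresses, is a large part of that sum, and some single genes of the list varied more.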

How the data were processed

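Per the labels and the study's methods, polyA RNA from snap-frozen tailbuds was sequenced with single-end reads of 75 bases. The authors trimmed reads with Trim Galore 0.4.4, mapped them with HISAT2 2.0.5 to GRCm38.p6 and quantified genes in SeqMonk. The deposited table holds log2 RPKM (reads scaled to library size and transcript length). The authors' mean column of each genotype was not used. Library totals, recovered as below, were 10957916 to 47298348 reads.

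Of 35591 rows, 35555 matched GENCODE M21 by identifier, and 99.4% of these had identical coordinates. Reads were recovered from exon length and library total, taking a gene without a read at 0.9 read. Of 105978 values above 0.95 read, 98.99% were whole within 0.02. The filter asked for 15 reads in total and, in 3 or more libraries, for the CPM equal to 10 reads at median depth. For the 97 rows that share an identifier, the most abundant row of each was used. The genotype test was that of limma 3.58.1 in R 4.3.3 (two-sided, trended variance, no pseudocount), adjusted by Benjamini-Hochberg over 13617 autosomal genes. The sexes were compared in a fit with 4 coefficients. Samples were grouped by the genotype label, and each is a separate embryo. On simulated data with 200 genes changed 2-fold among 13617, limma recovered 94% with 11 calls among unchanged genes, and 0 calls when none was changed. Beside counting error, every simulated gene had the same SD, the median residual SD of well covered genes. The share recovered therefore does not apply to genes that vary more, such as Trh, Krt19 and Foxa1. Confidence intervals of RPKM in single libraries are exact (Clopper-Pearson, counting error only). Those of fold changes are from the moderated t distribution of limma.

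The markers and gene lists were chosen with earlier results of these data known. Genes named were the markers, the 2 most abundant genes of each list, up to 2 with the smallest unadjusted p under 0.05, and the 10 most similar to the mean profile. Krt7, Krt14, Perp, Trp63, Hhex, Cer1, Trhr, Tshb, Cga and Gata1 were named after their values were seen. So were Dsg2, Plec, Krt23, Esrp1, Tfap2a, Dlx5, Sox7, Foxa3, Hnf4a, Spink1, Epcam, Pcsk1 and Dio3. A withheld item is not reported here. The alternatives were pseudocounts, filters, median-ratio scaling, voom, no trend, sex, the replicate block, females alone and each library left out. Permutation tests of correlations were added after seeing the data. Scripts ran in Python 3.11.15 using scipy 1.17.1, numpy 2.4.6 and pandas 2.3.3.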

Additional observations from a re-analysis of the deposited data

Results flagged for a closer look

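Over all autosomal genes, 37 genes had a genotype effect in males that differed from that in females at an adjusted p under 0.05, by a test of the difference itself (limma). The male arm has 1 embryo per genotype, so the spread in this test is that of the 4 females and the males are assumed to vary like them. None of the 7 hindgut endoderm markers was among them. With 1 male per genotype and males that share a mother, sex and the single libraries cannot be told apart.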

How the results depend on the processing

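No marker passed an adjusted p of 0.05 in any of the 16 alternatives run. Krt8 and Krt18 kept a log2 fold change above 0 in each. Over autosomal genes the adjusted p was under 0.05 for 10 in the females alone and for 0 otherwise (limma or voom). The unadjusted p was under 0.05 for 327, and for 425 by voom, 572 without the filter, 1188 in the females alone, and 187 (without WT replicate 3) to 944 (without WT replicate 1) with a library left out. For the markers that number was 0, with 1 when sex was a covariate and 0 to 2 with a library left out. The median log2 fold change of the markers was 0.14, with -0.0676 in the females alone and 0.0013 (without WT replicate 1) to 0.22 (without WT replicate 2) with a library left out. Signs turned for Sox17 with voom (-0.0716) and in the females alone (-0.0834), for Foxa1 (-0.25) and Krt19 (-0.0676) in the females alone, and for Trh with voom (-0.26). With a library left out, the fits gave -0.0520 to 0.21 for Sox17, -0.16 to 0.22 for Foxa1, -0.10 to 0.58 for Trh, -0.0699 to 0.0318 for Cldn6 and -0.15 to 0.30 for Krt19. The median r of the 21 pairs was 0.27, with 0.20 for Spearman's rho and -0.0151 (without WT replicate 1) to 0.55 (without MD43 replicate 2) with a library left out. The females and the fits with a library left out have fewer samples, and the cause of the other changes was not tested. With the replicate block, 307 autosomal genes had an unadjusted p under 0.05 and 0 passed adjustment, with the same log2 fold changes for the markers. Same-numbered libraries had correlations of -0.03, 0.17 and -0.17 in their deviations from the genotype means. Such deviations sum to 0 within each genotype, so these values cannot decide whether the numbers pair the libraries. The paper describes the embryos as paired by somite number, and by the labels a mother was shared only by replicate 1 of each genotype. Depth limited Trh most, with 101 reads in WT replicate 3.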
